A study of Mus musculus with 10 samples.

Results

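The genes described here encode the machinery that brings proteins into mitochondria and the proteases that process or remove them once inside. They were chosen by name: every gene symbol that starts with Timm or Tomm and a digit, except Timm44, and a list of 22 further symbols for the sorting and assembly machinery, the intermembrane space relay, processing peptidases and proteases. The rule found 43 genes among the 19938 with a symbol of their own on the array, and 42 of them passed the filter on dim rows. Timm8a2 did not pass, with values from 2.98 to 3.98 against a filter at 4.52 on the log2 scale. Phb was on probe sets annotated to 2 genes, as was Timm10b, and no probe set carried the symbol Immp2l, so these are not among the members.

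The RNA came from cells carrying B220, a B lineage surface marker, that were sorted out of pre-B colonies. These are colonies of B cell precursors that bone marrow cells formed over 7 days in M3630 methylcellulose medium. The wild type group is 5 Hspa9+/+ mice, described as littermates, and the heterozygous group is 5 Hspa9+/- mice, which carry 1 intact copy of Hspa9. Each mouse was cultured on its own and gave 1 Mouse Gene 1.0 ST array. How the Hspa9 allele was disrupted, the strain and the age are not given in the sources used here. Values are RMA expression on the log2 scale, differences are heterozygous minus wild type, and n = 5 arrays per genotype except where arrays are left out.

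Most mitochondrial proteins are made in the cytosol and enter through the TOM complex of the outer membrane. From there, barrel proteins go to the sorting and assembly machinery, small cysteine-rich proteins to a disulfide relay, carriers to TIM22, and proteins with a presequence to TIM23. Mortalin, the product of Hspa9, is the ATP-driven motor that pulls presequence proteins through TIM23 into the matrix. There peptidases cut off the presequence, and proteases such as LONP1 and CLPXP degrade proteins that fail to fold.

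Hspa9 itself had a lower mean in heterozygous cells. Its values were 9.49, 9.57, 10.36, 10.17 and 9.99 in wild type and 9.52, 8.92, 9.30, 9.21 and 8.97 in heterozygous arrays, so heterozygous 1 lay above wild type 1 and the groups overlapped. The heterozygous level was 60.3% of wild type (limma adjusted p = 0.345, exact permutation p = 0.0159).

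No import or protease gene passed the limma test, in a comparison where 0 of 14953 genes did. At an unadjusted limma p under 0.05 there were 4 of 42 members (9.52%), against 11.0% of all genes tested. These 4 were Samm50, Timm17b and Htra2 with higher means and Mtx2 with a lower mean. By direction that is 3 higher, where 6.79% of all genes were, and 1 lower, where 4.25% were. The genotypes did not overlap in 1 member, Mtx2, which lay lower. Over all genes 0.809% had every heterozygous value below every wild type value, 1.47% had every heterozygous value above, and 2.28% were separated either way. Taken in either direction, the members' share is near that of all genes by both counts. By direction the counts are of 0 to 3 members, too few to compare. Their median difference was 0.091, against 0.058 for all genes, and 30 of 42 differences (71.4%) were above 0, against 61.3% of all genes. The gap between these medians changed with the processing, as described at the end. Differences ran from -0.49 for Mtx2 to 0.42 for Samm50, both in the sorting and assembly machinery.

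**Figure D1:**
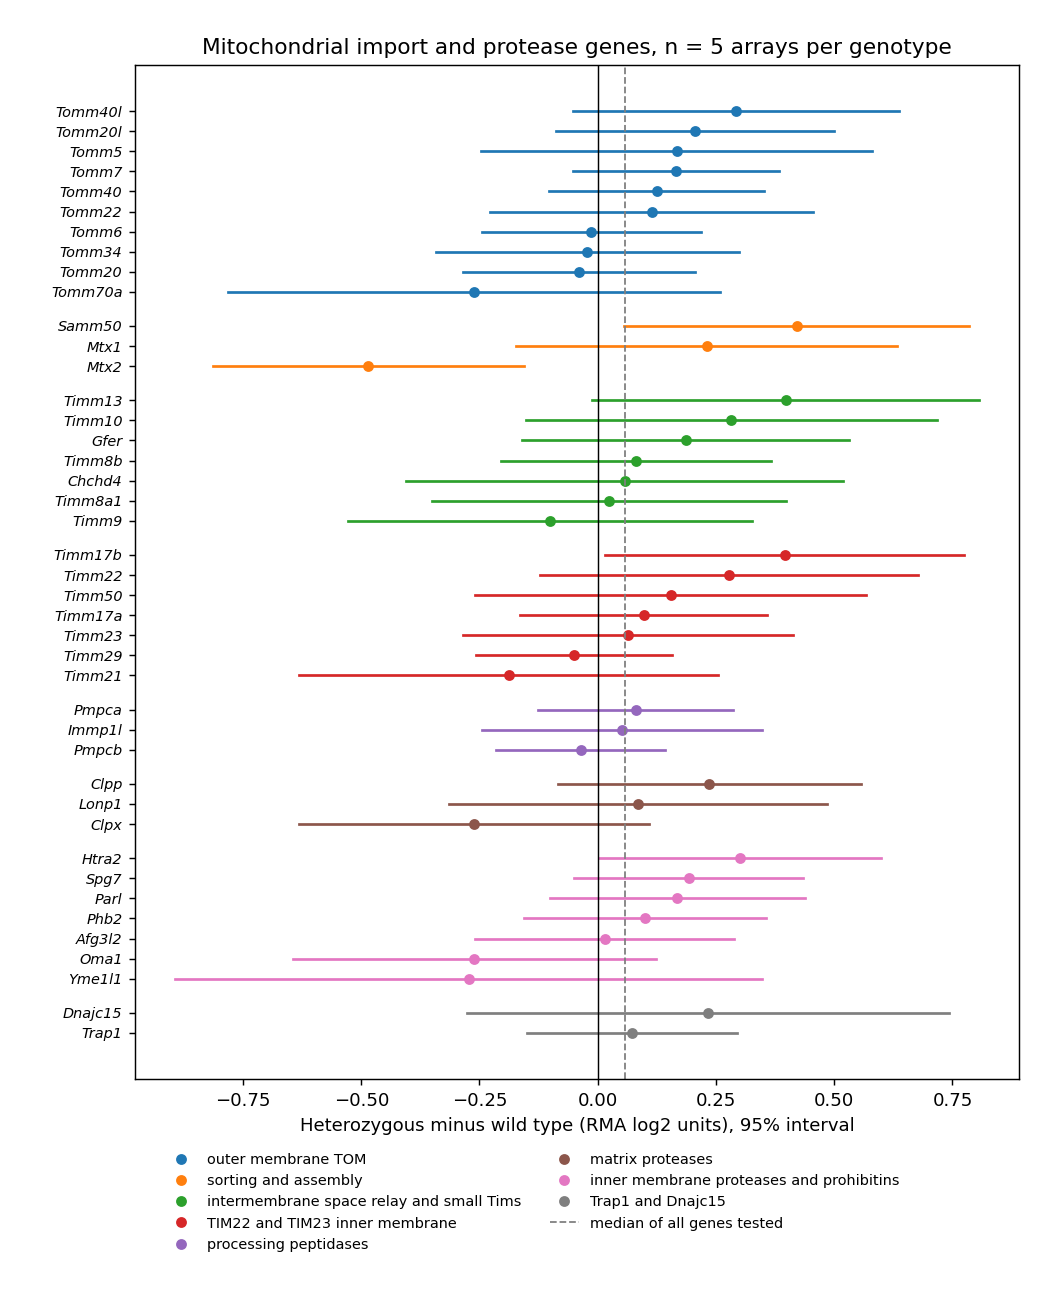
Differences between genotypes for the 42 import and protease genes. The x axis is heterozygous minus wild type in RMA log2 units, each point is 1 gene with its limma 95% interval, not adjusted for the number of genes, and colours mark roles. The dashed line is the median of all genes tested, 0.058. The interval of Mtx2 lies wholly below 0, and those of Samm50, Timm17b and Htra2 lie wholly above it.

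The sorting and assembly machinery inserts barrel proteins into the outer membrane. Its core, Samm50, and its metaxin partners Mtx1 and Mtx2 did not share a direction. Their promoter windows, 250 bases before to 50 after the RefSeq gene start, are shown because this group holds both ends of the range. Capitals mark letters that match a motif searched for, described further on. Mtx1 carries the ETS motif of GABPA once and the YY1 motif once, Mtx2 carries the GABPA motif at 2 places, and Samm50 has none of these letter strings.
Samm50 (GRCm38.p6, chr15:84191990-84192289, plus strand): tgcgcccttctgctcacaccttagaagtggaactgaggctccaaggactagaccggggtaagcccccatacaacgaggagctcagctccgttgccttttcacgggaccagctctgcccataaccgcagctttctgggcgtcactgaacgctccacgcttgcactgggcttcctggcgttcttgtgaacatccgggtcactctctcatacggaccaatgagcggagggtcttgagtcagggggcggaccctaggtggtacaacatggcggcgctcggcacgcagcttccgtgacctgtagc
Mtx1 (GRCm38.p6, chr3:89213858-89214157, minus strand): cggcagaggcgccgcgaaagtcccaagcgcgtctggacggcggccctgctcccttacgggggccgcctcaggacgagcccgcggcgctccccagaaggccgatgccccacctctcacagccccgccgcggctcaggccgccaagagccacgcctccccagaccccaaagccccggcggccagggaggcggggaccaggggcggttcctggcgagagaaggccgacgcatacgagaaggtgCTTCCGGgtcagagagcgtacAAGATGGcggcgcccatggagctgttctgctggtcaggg
Mtx2 (GRCm38.p6, chr2:74825562-74825861, plus strand): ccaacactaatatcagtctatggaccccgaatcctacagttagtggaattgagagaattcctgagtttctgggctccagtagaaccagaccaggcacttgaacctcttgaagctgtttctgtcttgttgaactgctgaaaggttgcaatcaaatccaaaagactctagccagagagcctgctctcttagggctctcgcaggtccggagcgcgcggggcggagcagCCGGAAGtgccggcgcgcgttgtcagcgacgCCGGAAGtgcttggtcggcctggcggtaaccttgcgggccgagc

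Mtx2 encodes metaxin 2, a subunit on the cytosolic side of the complex. Its values were 7.27, 7.27, 7.49, 7.45 and 7.94 in wild type and 7.13, 6.97, 7.06, 7.17 and 6.64 in heterozygous arrays. All 5 heterozygous arrays lay below all 5 wild type arrays, and the nearest were wild type 1 and 2 at 7.27 and heterozygous 4 at 7.17. The difference was -0.49 (SE 0.149), or 71.4% of the wild type level with a 95% interval of 56.9 to 89.7%. The exact permutation p of 0.00794 is the smallest that 5 against 5 arrays can give, and the limma adjusted p was 0.349. With 1 array left out the difference ran from -0.54 to -0.37 and the adjusted p from 0.222 to 0.663. It was 0.0916 with array weights, which count arrays that deviate for less and under which 137 of all genes passed.

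Samm50 is the barrel through which the complex folds its clients. Its values were 8.70, 9.42, 9.04, 8.85 and 8.96 in wild type and 9.35, 9.15, 9.16, 9.69 and 9.73 in heterozygous arrays. Wild type 2 lay above heterozygous 1, 2 and 3, and every other wild type array lay below all heterozygous arrays. The difference was 0.42 (SE 0.165), or 134% of wild type (limma adjusted p = 0.409, exact permutation p = 0.0476). With 1 array left out the difference ran from 0.34 without heterozygous 5 to 0.53 without wild type 2.

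Mtx1, metaxin 1, had values of 9.21, 9.36, 8.75, 8.59 and 8.92 in wild type and 8.96, 8.99, 8.97, 9.45 and 9.61 in heterozygous arrays. Wild type 1 and 2 stood within the heterozygous range, so the genotypes overlapped. The difference was 0.23 (SE 0.183, limma adjusted p = 0.60), and 0.13 without heterozygous 5. The value of Mtx2 minus Mtx1, taken within each array, differed by -0.72 between genotypes, from -1.94, -2.09, -1.27, -1.14 and -0.99 in wild type to -1.83, -2.01, -1.92, -2.28 and -2.96. Wild type 1 and 2 again lay among the heterozygous values. The exact permutation p was 0.0714, and 0.286 after adjustment over the 8 pairs that could be measured.

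**Figure D2:**
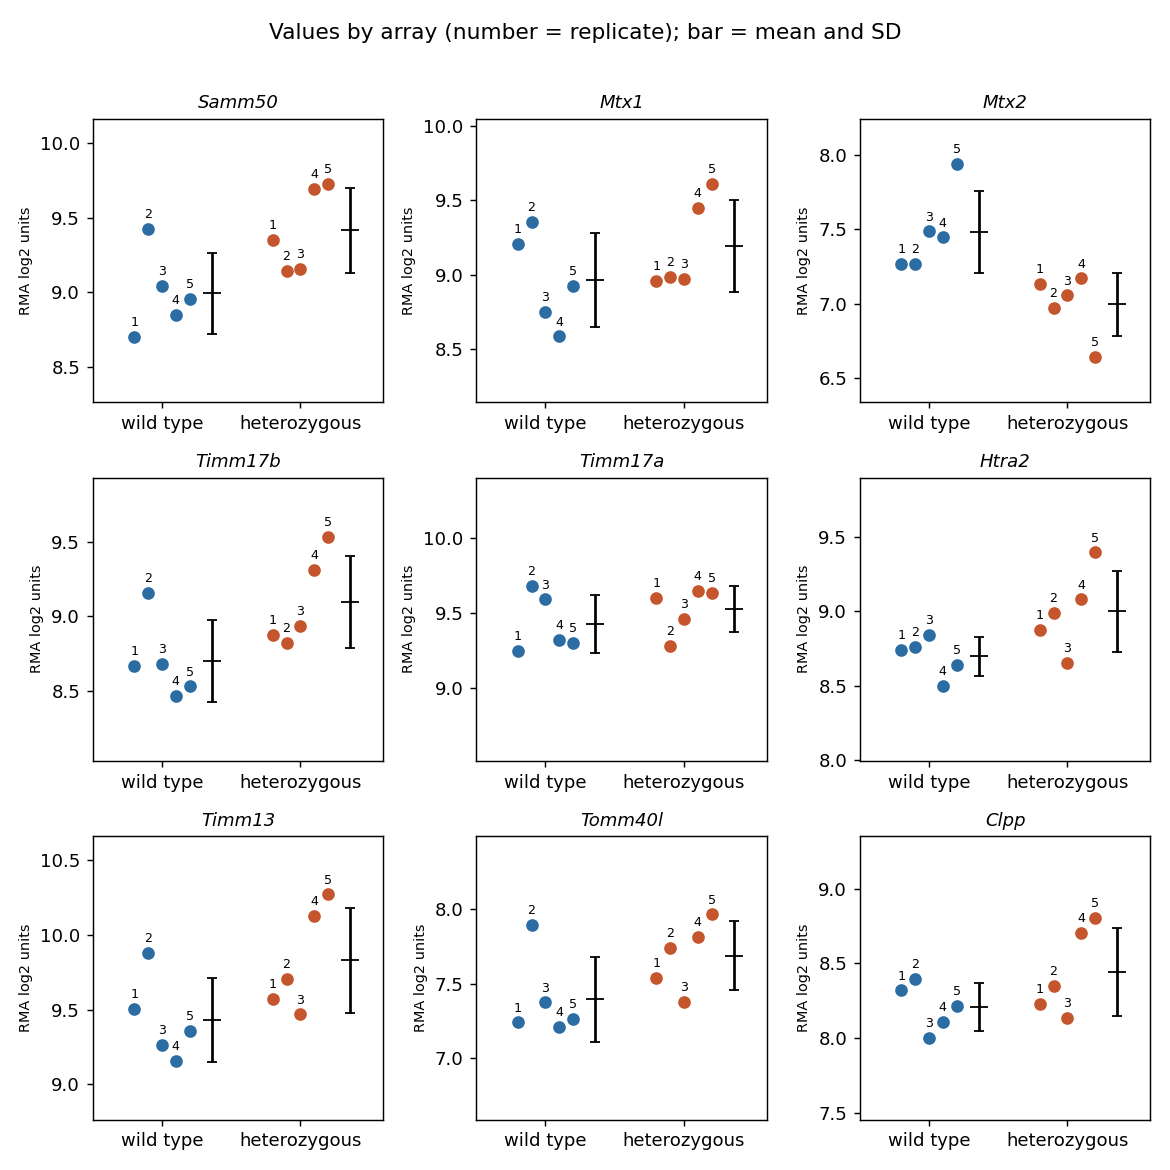
Values of 9 members on each array in RMA log2 units, with wild type arrays in blue and heterozygous arrays in red. Numbers beside points are replicate numbers, each panel spans the same height, and the black bar is the mean and SD of 5 arrays. In Mtx2 every heterozygous array lies below every wild type array, and in Samm50, Timm17b, Timm13 and Tomm40l wild type 2 is the highest wild type array.

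The inner membrane translocases hold the next member. TIM23 threads presequence proteins inward and TIM22 inserts carriers. Timm17a and Timm17b are alternative subunits beside the Timm23 channel. Of the 7 members here 5 had differences above 0, and the group ran from -0.19 for Timm21, which links TIM23 to TOM, to 0.40 for Timm17b. The promoter windows of the alternative subunits are shown because these paralogs were compared as a pair. The Timm17a window holds 1 YY1 motif match just after the gene start, and the Timm17b window holds no match.
Timm17a (GRCm38.p6, chr1:135313688-135313987, minus strand): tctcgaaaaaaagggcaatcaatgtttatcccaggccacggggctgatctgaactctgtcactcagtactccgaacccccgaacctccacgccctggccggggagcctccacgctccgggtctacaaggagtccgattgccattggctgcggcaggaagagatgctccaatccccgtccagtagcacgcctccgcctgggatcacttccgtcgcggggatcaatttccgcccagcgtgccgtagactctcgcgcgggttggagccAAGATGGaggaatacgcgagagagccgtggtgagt
Timm17b (GRCm38.p6, chrX:7899086-7899385, plus strand): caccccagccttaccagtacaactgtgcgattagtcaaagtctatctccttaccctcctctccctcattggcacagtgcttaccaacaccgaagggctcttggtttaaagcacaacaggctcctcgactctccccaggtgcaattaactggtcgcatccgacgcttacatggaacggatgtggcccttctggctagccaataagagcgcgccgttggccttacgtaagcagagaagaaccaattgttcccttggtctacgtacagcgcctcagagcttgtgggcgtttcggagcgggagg

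Timm17b was at 8.66, 9.16, 8.68, 8.46 and 8.53 in wild type and at 8.87, 8.82, 8.94, 9.31 and 9.53 in heterozygous arrays. Apart from wild type 2, every wild type array lay below every heterozygous array. The difference was 0.40 (SE 0.172), or 131% of wild type with an interval of 101 to 171% (limma adjusted p = 0.446, exact permutation p = 0.0794). Timm17a was at 9.25, 9.68, 9.59, 9.32 and 9.30 in wild type and 9.60, 9.28, 9.46, 9.65 and 9.64 in heterozygous arrays, which interleave throughout. Its difference was 0.10 (SE 0.118), and its other probe set gave 0.07.

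Within arrays, Timm17b minus Timm17a was higher by 0.30 in heterozygous cells. It was -0.58, -0.53, -0.91, -0.86 and -0.77 in wild type and -0.73, -0.46, -0.53, -0.34 and -0.10 in heterozygous arrays. The exact permutation p was 0.0476, and 0.286 over the 8 pairs, so it did not pass after adjustment. With 1 array left out it ran from 0.22 without heterozygous 5 to 0.37 without heterozygous 1.

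The remaining inner membrane members had wide intervals. Timm22, the carrier channel, was at 0.28 (SE 0.182) and Timm50, the presequence receptor of TIM23, at 0.15 (SE 0.188). Timm21 was at -0.19 (SE 0.201). With 1 array left out Timm50 ran from 0.026 without heterozygous 5 to 0.25 without heterozygous 3. Timm21 ran from -0.30 without wild type 1 to -0.039 without heterozygous 5. Timm29, a TIM22 subunit, was at -0.05, with an interval of -0.26 to 0.16. Timm23, the channel itself, was at 0.06. It is represented by 4 probe sets, of which 2 held the same values on every array and are not separate measurements. The other probe sets gave 0.05.

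**Figure D3:**
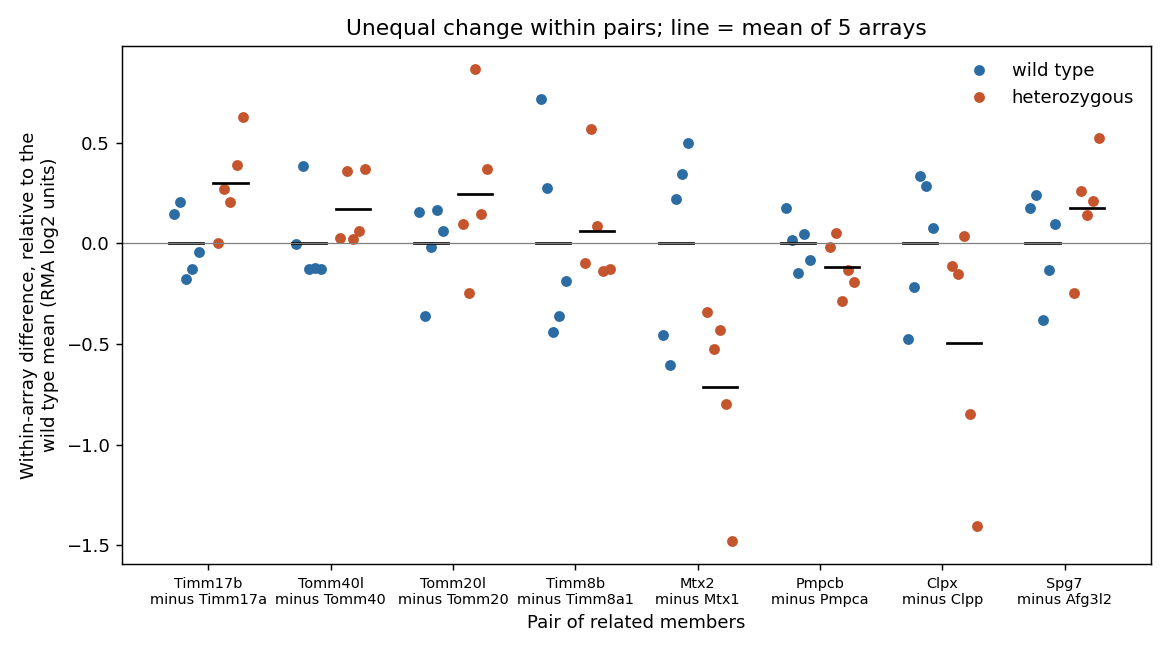
Value of one member minus its partner within each array, set relative to the wild type mean of that pair, in RMA log2 units. Points are arrays, wild type in blue and heterozygous in red, and lines are means of 5 arrays. The lowest heterozygous points of Mtx2 minus Mtx1 and Clpx minus Clpp both come from heterozygous 5.

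The TOM complex, the general entry gate, had 10 members and 0 at an unadjusted limma p under 0.05. Differences were above 0 for 6 and ran from -0.26 to 0.29. The window of Tomm22, the central receptor, is shown as the one in this group with the most GABPA matches, of which 2 overlap because the motif meets its own reverse complement.
Tomm22 (GRCm38.p6, chr15:79670618-79670917, plus strand): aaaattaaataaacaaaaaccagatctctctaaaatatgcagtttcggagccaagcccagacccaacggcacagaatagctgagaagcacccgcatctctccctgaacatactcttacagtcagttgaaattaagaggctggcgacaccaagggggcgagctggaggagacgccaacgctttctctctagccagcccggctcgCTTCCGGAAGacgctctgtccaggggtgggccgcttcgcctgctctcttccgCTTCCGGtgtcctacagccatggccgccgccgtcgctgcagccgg

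Tomm40l, a paralog of the TOM channel, had the smallest p of the group. It was at 7.24, 7.89, 7.38, 7.21 and 7.27 in wild type and 7.54, 7.74, 7.38, 7.82 and 7.97 in heterozygous arrays, with wild type 2 among the heterozygous values. The difference was 0.29 (SE 0.156, limma adjusted p = 0.498), and ran from 0.22 without heterozygous 5 to 0.42 without wild type 2. Tomm40, the channel, was at 0.12 (SE 0.103), and the value of Tomm40l minus Tomm40 differed by 0.17 between genotypes (exact permutation p = 0.198, adjusted 0.317).

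The receptors gave no common direction. Tomm20, which binds presequences, was at -0.04 with an interval of -0.29 to 0.21, and its other probe set gave -0.05. Tomm22 was at 0.11, and wild type 2 at 9.49 was its highest array of all 10. Tomm70a, the receptor for carriers delivered by cytosolic chaperones, was at -0.26 (SE 0.236), and ran from -0.40 without heterozygous 1 to -0.11 without heterozygous 5.

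The small subunits that surround the channel were Tomm5 at 0.17, Tomm6 at -0.01 and Tomm7 at 0.17. The interval of Tomm7 was -0.05 to 0.38. Tomm34, a cytosolic cochaperone, was at -0.02. Tomm20l, a paralog of Tomm20, was at 0.20 (SE 0.134). It was dim, with a wild type mean of 5.17, and the difference ran from 0.10 without heterozygous 3, at 5.81 its highest array, to 0.29 without heterozygous 2.

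The intermembrane space relay oxidises incoming proteins through Chchd4, which Gfer recharges, and the small Tims carry hydrophobic clients across. Of 7 members that passed the filter, 6 had differences above 0 and 0 reached an unadjusted p under 0.05. Timm10 pairs with Timm9 in the main small Tim hexamer, and its window, shown for its GABPA matches close to the gene start, holds 3 of them. Those after the start overlap, each being the reverse complement of the other.
Timm10 (GRCm38.p6, chr2:84826771-84827070, plus strand): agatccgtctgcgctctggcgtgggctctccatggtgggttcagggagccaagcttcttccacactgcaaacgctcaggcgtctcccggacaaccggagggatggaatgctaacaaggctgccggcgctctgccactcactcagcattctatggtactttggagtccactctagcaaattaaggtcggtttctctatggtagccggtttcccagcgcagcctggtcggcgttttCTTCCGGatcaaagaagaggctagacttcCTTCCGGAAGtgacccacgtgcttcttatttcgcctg

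Timm13, which works with Timm8 proteins, had the smallest p. It was at 9.50, 9.88, 9.26, 9.16 and 9.36 in wild type and 9.57, 9.71, 9.47, 10.13 and 10.27 in heterozygous arrays. Wild type 1 and 2 lay within the heterozygous range. The difference was 0.40 (SE 0.186), or 132% of wild type with an interval of 99.2 to 175% (limma adjusted p = 0.460, exact permutation p = 0.0873). It ran from 0.29 without heterozygous 5 to 0.51 without wild type 2.

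Timm10 was at 0.28 (SE 0.198), with wild type 1 at 7.58 against 8.25 or more on every other array, and it ran from 0.11 without that array to 0.37 without wild type 2. Its hexamer partner Timm9 was at -0.10. Timm8b was at 0.08 and Timm8a1 at 0.02, and Timm8b minus Timm8a1 differed by 0.06 (exact permutation p = 0.833). Gfer was at 0.19 and Chchd4 at 0.06, the latter with an interval of -0.40 to 0.52.

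Of the proteases of the inner membrane and intermembrane space, Htra2 had the smallest p. Htra2 is a serine protease that removes damaged proteins from the intermembrane space. It was at 8.74, 8.76, 8.84, 8.50 and 8.64 in wild type and 8.87, 8.99, 8.65, 9.08 and 9.39 in heterozygous arrays. Heterozygous 3 was the one heterozygous array within the wild type range. The difference was 0.30 (SE 0.135), or 123% of wild type (limma adjusted p = 0.449, exact permutation p = 0.0476), and it ran from 0.20 without heterozygous 5 to 0.39 without heterozygous 3.

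The AAA proteases are ATP-driven enzymes that face the matrix or the intermembrane space. Their differences had either sign, and the interval of each included 0. Spg7 and Afg3l2 form the matrix-facing enzyme. Spg7 was at 0.19 (SE 0.110) and Afg3l2 at 0.02 (SE 0.124), and Spg7 minus Afg3l2 differed by 0.18 (exact permutation p = 0.325). Yme1l1, the enzyme that faces the other side, was at -0.27 (SE 0.282). Its values of 8.27, 8.17, 9.06, 9.12 and 8.28 in wild type and 8.92, 8.77, 8.30, 7.80 and 7.74 in heterozygous arrays spread more within genotypes than those of any other member, with a pooled SD of 0.506. The difference ran from -0.43 without heterozygous 1 to -0.13 without heterozygous 5.

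Oma1, the stress-activated protease that cleaves the fusion protein OPA1, was at 7.16, 6.69, 6.32, 6.38 and 6.37 in wild type and 6.35, 6.69, 6.23, 6.12 and 6.23 in heterozygous arrays. Its highest arrays, wild type 1 and 2 and heterozygous 2, were the 3 highest in macrophage genes. The difference was -0.26 (SE 0.175, limma adjusted p = 0.554), and -0.45 with the mean of the macrophage markers as a covariate (adjusted p = 0.116). With 1 array left out it ran from -0.35 without heterozygous 2 to -0.12 without wild type 1. Parl, the rhomboid protease that cleaves PINK1, was at 0.17, and at 0.33 by its other probe set. Phb2, a prohibitin that scaffolds the AAA proteases, was at 0.10.

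In the matrix, Clpp and Clpx are the peptidase and the unfoldase of one protease. Clpp was at 8.32, 8.40, 8.0, 8.11 and 8.21 in wild type and 8.23, 8.35, 8.13, 8.70 and 8.80 in heterozygous arrays, so only heterozygous 4 and 5 stood above the wild type range. Its difference was 0.24 (SE 0.146, limma adjusted p = 0.538), and 0.15 without heterozygous 5. Clpx was at 6.94, 7.27, 7.43, 7.49 and 7.39 in wild type and 7.21, 7.29, 7.27, 6.95 and 6.49 in heterozygous arrays, with a difference of -0.26 (SE 0.168). Heterozygous 5 was the only array below wild type 1, and the difference was -0.12 without it.

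Clpx minus Clpp differed by -0.50 between genotypes (exact permutation p = 0.175, adjusted 0.317), and ran from -0.63 without heterozygous 3 to -0.27 without heterozygous 5. Lonp1, the other main matrix protease, was at 0.09 with an interval of -0.31 to 0.48.

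The processing peptidases, which remove targeting sequences, had differences from -0.04 to 0.08. Pmpca, a subunit of the matrix processing peptidase, was at 9.47, 9.73, 9.77, 9.75 and 9.80 in wild type and 9.73, 9.67, 9.86, 9.89 and 9.78 in heterozygous arrays. Wild type 1 was its lowest array, and the difference was 0.08 (SE 0.094, limma adjusted p = 0.715). Its catalytic partner Pmpcb was at -0.04, with an interval of -0.22 to 0.14 and the smallest spread of any member, a pooled SD of 0.0759. Immp1l of the inner membrane peptidase was at 0.05.

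Dnajc15, a J protein of the import motor, followed another pattern. It was at 10.12, 10.29, 9.33, 9.31 and 9.32 in wild type and 9.73, 10.41, 9.61, 9.93 and 9.87 in heterozygous arrays. The 3 arrays highest in macrophage genes were also its 3 highest. Its difference was 0.23 (SE 0.231, limma adjusted p = 0.669), and -0.0045 with the macrophage mean as a covariate. It ran from 0.11 without heterozygous 2 to 0.39 without wild type 2. Trap1, the mitochondrial Hsp90, was at 0.07 (SE 0.101).

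Across arrays, the members did not vary independently of the sample. Heterozygous 5 was the highest array for 12 members and the lowest for 6, among them Mtx2, Clpx, Tomm70a, Timm21 and Yme1l1. Heterozygous 4 was the highest for 11. Together with wild type 1 and wild type 4, each the lowest for 12, these arrays supplied most extremes. Heterozygous 5 was an extreme for 42.9% of members and 39.7% of all genes, and heterozygous 4 for 28.6% of members and 13.6% of all genes. Wild type 1 was an extreme for 31.0% of members and 24.5% of all genes, being the lowest for 16.1% of all genes. Wild type 4 was an extreme for 38.1% of members and 28.0% of all genes, being the lowest for 17.8%. The number of members at an unadjusted p under 0.05 was 1 of 42 (2.38%) without heterozygous 4 or 5, where it was Mtx2 each time, against 9.54% and 7.0% of all genes. It was also 1 without wild type 1, 4 or 5, against 15.0%, 7.06% and 9.48% of all genes. It was 6 (14.3%) without wild type 2, heterozygous 1 or heterozygous 3, against 13.6%, 11.9% and 9.62% of all genes.

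**Figure D4:**
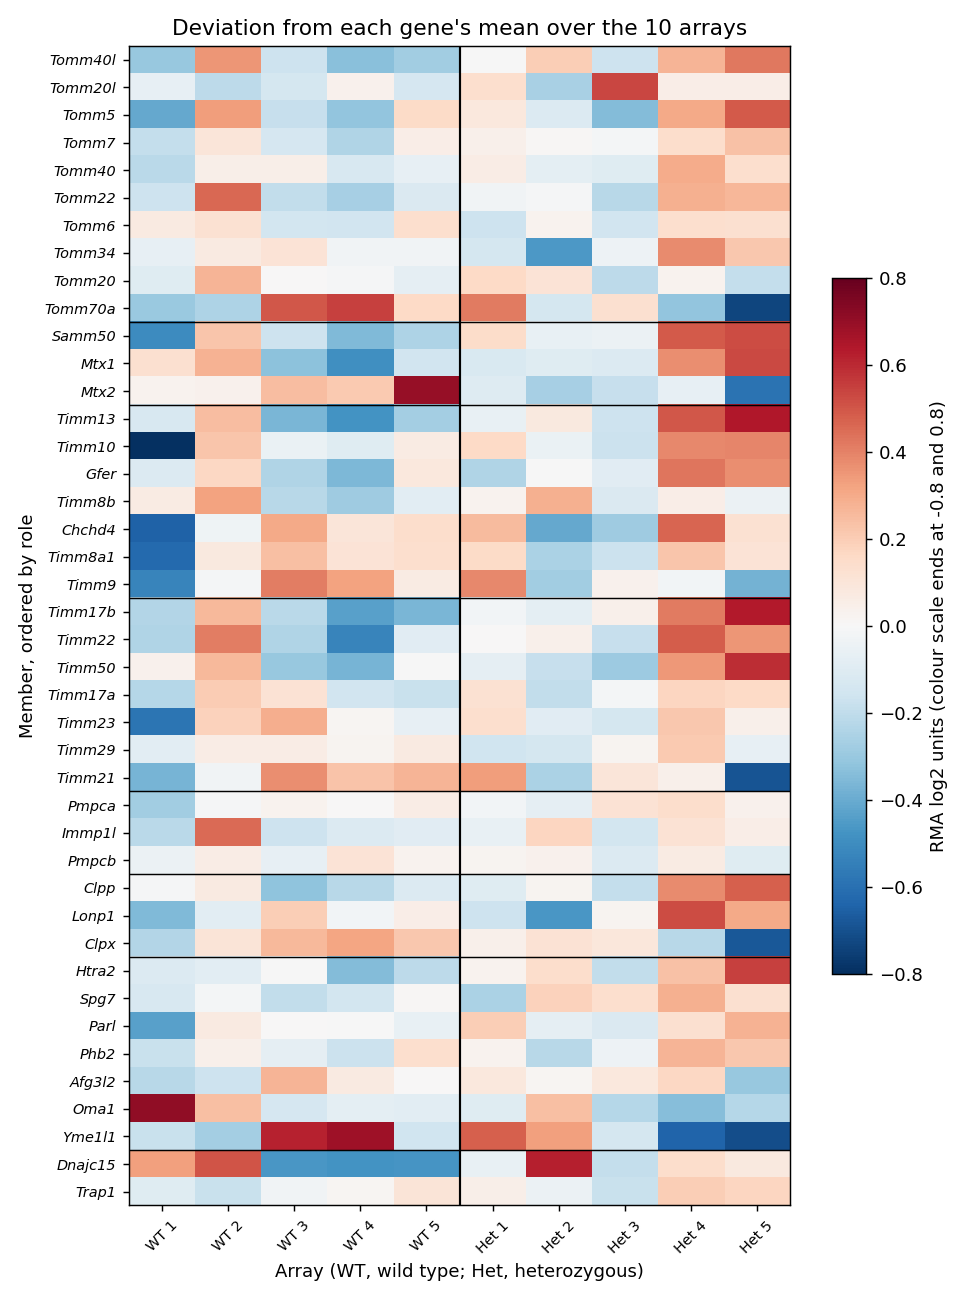
Deviation of each of the 42 members on each array from its own mean over the 10 arrays, in RMA log2 units, with rows grouped by role and ordered by difference. Red is above and blue below the gene's mean. Heterozygous 4 and 5 are red for Samm50, Timm13, Timm17b and Clpp and heterozygous 5 is blue for Clpx, Timm21, Yme1l1 and Mtx2.

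The sorted cells carried B lineage genes on every array, with means over 9 markers, among them Cd79a, Pax5 and Vpreb1, of 11.21 to 11.42 in wild type and 10.93 to 11.35 in heterozygous arrays. Array medians over all probe sets were 5.38 to 5.49. Ptprc, the gene of the sorted marker B220, was at 8.33 and 7.89 in heterozygous 4 and 5 and at 9.35 or more on every other array, and its part in the members' values was not tested. Markers of other cells also varied. The 13 monocyte and macrophage markers had means of 5.62 to 9.20 in wild type, highest in wild type 1 at 9.20 and wild type 2 at 7.62, and of 7.04 to 9.68 in heterozygous arrays, highest in heterozygous 2. The 5 measured T cell and NK cell markers had means of 5.28 to 6.06 in wild type and 6.26 to 6.51 in heterozygous arrays, without overlap. Neutrophil markers were at 5.10 to 6.84 and 5.60 to 7.61, plasmacytoid dendritic cell markers at 6.16 to 7.14 and 6.78 to 8.29, megakaryocyte markers at 4.93 to 7.54 and 5.25 to 7.79, and erythroid markers at 4.75 to 5.25 and 4.99 to 5.32. The 1 measured mast cell and basophil marker was at 5.31 to 5.75 and 5.62 to 5.89. Apart from the fits with macrophage markers, the part of other cells in the members' values was not tested. In bulk RNA, fewer cells of a type and less RNA per cell cannot be told apart. Without wild type 1 and heterozygous 2 the members' median difference was 0.11 and 5 (11.9%) were at an unadjusted p under 0.05, against 16.1% of all genes, of which 26 passed the adjusted threshold. These members were Mtx2, Samm50, Timm17b, Clpx and Tomm20l.

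Around the members, the partners of mortalin and of Hsp60 were counted in the same fit, in a list that holds Hspa9 itself. Of 10 genes 0 passed limma's adjusted threshold. The 1 gene with an unadjusted p under 0.05 was Hspa9, the disrupted gene. None of its partners was at that p, where 11.0% of all genes tested were. The median difference, with Hspa9 included, was -0.03. Timm44, which anchors mortalin to TIM23, was at -0.03 (SE 0.207), and the motor subunits Dnajc19, a J protein, and Pam16, which holds it in check, were at -0.10 and 0.04. The nucleotide exchange factors Grpel1 and Grpel2 were both at 0.17, and the cochaperone Dnaja3 was at 0.21. Hspd1, which encodes Hsp60, was at -0.02 with an interval of -0.78 to 0.75.

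Of 27 further measured genes of import, processing and membrane upkeep, 0 passed and 4 had an unadjusted limma p under 0.05. These were 2 in each direction, and the median of the 27 was 0.0022. Of all genes tested 11.0% were at that p, and 2.28% had genotypes that did not overlap. Timmdc1, an assembly factor of complex I, was at 6.97, 7.06, 7.06, 7.00 and 7.05 in wild type and 7.09, 7.27, 7.14, 7.42 and 7.34 in heterozygous arrays. Vdac3, an outer membrane channel, was at 9.84, 10.07, 9.83, 9.82 and 9.97 in wild type and 9.74, 9.72, 9.56, 9.77 and 9.76 in heterozygous arrays. Vdac3 was named after its values were seen. Neither gene's genotypes overlapped, Timmdc1 lying higher by 0.22 (SE 0.089, limma adjusted p = 0.414) and Vdac3 at -0.20 (SE 0.088, adjusted p = 0.449). Romo1, a small inner membrane protein, was at 0.27 and Maip1, a partner of the matrix AAA protease, at -0.25, and their genotypes overlapped.

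Promoter sequence played no part in the choice of the genes. RefSeq promoter windows of 300 bases were found for 38 of 43 members, and none was found for Htra2, Afg3l2, Tomm40l, Tomm7 or Timm21. Most windows were rich in CpG: 85.0% had a ratio of observed to expected CpG above 0.6, against 35.8% of all 32851 windows. All windows include those of genes not tested here, and the CpG share among genes tested is not given. The motifs searched on both strands were those of NRF1, GABPA (CCGGAAG), YY1 (AAGATGG) and the composite element of ATF4 and C/EBP factors (TGATGNAA). NRF1 and GABPA are factors known for their part in nuclear genes of mitochondria, and ATF4 for the response to mitochondrial stress.

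The GABPA motif stood in the windows of 16 of 38 members (42.1%). By comparison it stood in 8.86% of all windows, in 17.02% of the 11781 genes tested that had a window, and in 18.7% of windows with a CpG ratio above 0.6. The members with it include Mtx1, Mtx2, Clpp, Pmpca, Pmpcb, Phb2, Yme1l1, Timm10, Timm23, Tomm22 and Tomm70a. The NRF1 motif stood in 5 (13.2%, against 9.74% of genes tested), the YY1 motif in 6 (15.8%, against 7.71%) and the ATF4 and C/EBP element in 0, against 2.82% of genes tested. In windows with a CpG ratio above 0.6 the shares were 11.85% for NRF1, 7.0% for YY1 and 1.47% for the ATF4 and C/EBP element. Of the 15 tested members with the GABPA motif 9 had differences above 0, with a median of 0.08, and of the 22 without it 17 did, with a median of 0.11. These are matches of letters and not known sites, and the difference between these groups of members was not tested.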

How the data were processed

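Gene-level log2 RMA values of 10 arrays were deposited by the authors, who made them in Affymetrix Expression Console per the labels. RMA corrects background, gives all arrays one distribution and summarises probe sets, so a shift of most genes would be largely removed. Version, genome build and annotation are not given in the sources used here. Of 35556 probe sets, 21789 had 1 symbol in the platform annotation, 1621 several, and 12146 were not listed. For each symbol the probe set of highest mean was kept, and rows at or below the 25th percentile (4.52) were left out, leaving 14953 genes. The comparison of genotypes used limma 3.58.1 (R 4.3.3; lmFit, eBayes; Benjamini-Hochberg over all genes; threshold 0.05), and for single values also an exact permutation test, two-sided, over all 252 splits. SE are limma's and SD are between arrays. Of 10 pairs of related members planned, 8 could be measured. The fit was tested on simulated data in which genes varied independently, so effects shared by many genes on an array were not simulated. The number of arrays limits the precision.

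Members given with every array value are those with an unadjusted p under 0.05 or separated genotypes and the smallest p of each role. Mtx1, Timm17a, Clpx, Oma1 and Yme1l1 were given in full, and some partners of mortalin named, after their values were seen, and the promoters shown were chosen the same way. The members and lists were chosen with earlier results of these data known. Alternatives were other filters, probe sets, normalizations, priors and weights, a replicate block, a macrophage covariate, a threshold of 0.1, and arrays left out. All 43 members matched RefSeq by Entrez identifier. Promoters are from RefSeq, assembly GRCm38.p6.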

Additional observations from a re-analysis of the deposited data

Results flagged for a closer look

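In 7 of 86 groups of 5 arrays (42 members and Hspa9, in each genotype) the highest or lowest array stood apart from the others by a larger share of the group's range than Dixon's 95% limit allows. Chance gives about 1 in 20 groups, but the groups share the same 10 arrays and are not independent. The share over all genes is not given here, so the count cannot be read as a trait of the members. All 7 were in wild type, and all came from wild type 1 or wild type 2. Wild type 1 was the lowest for Parl at 8.45 (next 8.82), Timm8a1 at 8.31 (next 9.01) and Pmpca at 9.47 (next 9.73). Wild type 2 was the highest for Tomm40l at 7.89 (next 7.38), Tomm22 at 9.49 (next 8.91), Tomm20 at 10.93 (next 10.66) and Immp1l at 9.19 (next 8.65). These were also the wild type arrays with the highest macrophage marker means, 9.20 and 7.62. Whether the levels of these genes follow the macrophage content was not tested.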

How the results depend on the processing

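No member passed the limma threshold under any alternative run, while 137 of all genes did with array weights, 26 without wild type 1 and heterozygous 2, 22 without wild type 1, 3 without heterozygous 2, and 2 at a threshold of 0.1. The share of all genes at an unadjusted p under 0.05 ran from 7.0 to 20.6% and that with separated genotypes from 1.49 to 8.65%, against 2.38 to 14.3% of members at that p. The members' median difference stayed above 0, as did that of all genes, but the gap between them changed. The members' median was 0.0853 with the filter at the median row mean, against 0.0175 for all genes. It was 0.0984 against 0.0141 with quantile normalization and 0.0848 against 0.0104 with cyclic loess. With the macrophage covariate it was 0.1526 against 0.0536, and with array weights 0.0699 against 0.0591. Whether the members differ from all genes was not tested. With 1 array left out the members' median was lowest without heterozygous 4, at 0.0566 against 0.0522 for all genes. It was highest without wild type 2, at 0.1564 against 0.0736. Mtx2, Samm50, Timm17b and Htra2, named for an unadjusted p under 0.05 in these same arrays, kept their direction in all 21 alternatives. Many other members did too, among them Pmpcb (-0.0362) and Timm29 (-0.0501), so this does not set those named apart. Same-numbered arrays' deviations correlated from -0.53 to 0.53, and 0 of 5 wild type arrays correlated best with its own number. These correlations show no pairing of mice by replicate number but cannot exclude it. With the replicate block 0 members were higher and 1, Mtx2 (limma adjusted p = 0.555), lower at an unadjusted p under 0.05. So were 0 of the 27 further import genes and 8.96% of all genes, in either direction.

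The count of higher members at an unadjusted p under 0.05 was 1 with arrays centred on the median and 0 to 5 with 1 array left out. That of lower members was 2 with the macrophage covariate or without wild type 1 and heterozygous 2, and 1 to 1 with 1 array left out. Of all genes, in either direction, 9.1% were at that p with centring, 11.1% with the trended prior and 15.1% with the covariate. The share was 16.1% without both arrays, 20.6% with array weights and 7.0 to 15.0% with 1 array left out. Without wild type 1 and heterozygous 2, 1 member was separated higher and 2 lower, where 8.65% of all genes were separated either way. With 1 array left out, 0 to 3 members were separated higher and 1 to 1 lower, against 2.63 to 5.4% of all genes either way. Leaving out arrays cannot undo a separation, so that of Mtx2 could not be lost in these settings. Array weights let Hspa9 pass (-0.79, adjusted p = 0.0381), so 1 gene of its list passed and 2 had an unadjusted p under 0.05, against 3 with the macrophage covariate and 1 to 2 with 1 array left out. Hspa9 ran from -0.84 to -0.62 with 1 array left out. Of the 27 further genes, 0 were at that p with centring, 1 with the trended prior, the covariate or without both arrays, and 1 to 4 with 1 left out.

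Small differences changed sign, and so did that of Dnajc15, at 0.23 without a covariate. Array weights gave Afg3l2 -0.0088, Chchd4 -0.0985, Timm8a1 -0.1066, Timm23 -0.0418 and Trap1 -0.0168. The macrophage covariate gave Timm8b -0.0185, Timm9 0.061, Tomm34 0.0591, Dnajc15 -0.0045 and Timm44 0.1259. Without wild type 1 and heterozygous 2, Afg3l2 was at -0.0395, Timm8a1 -0.063, Tomm34 0.0718, Immp1l -0.0313 and Timm23 -0.0432, and quantile normalization gave Timm44 0.0103. With 1 array left out, Afg3l2 ran from -0.0376 to 0.0936, Chchd4 from -0.098 to 0.1667, Timm8a1 from -0.1296 to 0.0896, Lonp1 from -0.0353 to 0.2123, Tomm20 from -0.0848 to 0.0234, Tomm34 from -0.1191 to 0.0912, Tomm6 from -0.053 to 0.0269, Timm23 from -0.0738 to 0.1459, Timm44 from -0.2132 to 0.0844 and Timm8b minus Timm8a1 from -0.0686 to 0.2373. The cause was not tested.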
